A study of Mus musculus with 12 samples.

Results

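Transforming growth factor beta (TGF-beta) signalling was examined through 10 of the 55418 genes in the count table of this series. They were taken by symbol and role in the pathway. The set holds the ligands Tgfb1, Tgfb2 and Tgfb3, the receptors Tgfbr1, Tgfbr2 and Tgfbr3, the signal transducers Smad2 and Smad3, their inhibitor Smad7 and the matrix protein Tgfbi. Expression was measured in 12 single cells of mouse Achilles tendon without injury, 6 labelled Tnmd-/- ScxGFP+ and 6 labelled WT ScxGFP+. The comparison asks how tendon lineage cells differ when tenomodulin (Tnmd), a membrane glycoprotein of tendon, is missing.

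Both groups carried the ScxGFP transgene, in which regulatory sequence of the tendon transcription factor Scx drives a green fluorescent protein, and both came from untreated animals on the C57BL/6 background. The knockout of Tnmd was constitutive and therefore present in every cell of the animal. Tnmd lies on the X chromosome, and per the study's methods its WT animals were hemizygous males and homozygous or heterozygous females, so a WT cell may come from a heterozygote. The age of the animals that gave these cells is not given in the sources used here. The methods give n = 2 tendons, and no label ties a cell to an animal. Each genotype was for that reason treated as 1 sample, no test between genotypes was made, and cells are described by their values and range.

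TGF-beta ligands are secreted in a latent form that is held in the matrix and has to be activated. An active ligand binds Tgfbr2, which then phosphorylates Tgfbr1, while the co-receptor Tgfbr3 (betaglycan) presents ligand to them. The activated receptors phosphorylate Smad2 and Smad3, which enter the nucleus with Smad4, and Smad7 acts against the receptors as a feedback inhibitor. Tgfbi is a secreted matrix protein named for its induction by TGF-beta. In tendon the pathway is known for recruiting and maintaining tendon progenitors and for inducing Scx.

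Cells were picked by hand for green fluorescence and amplified with the Smart-Seq2 protocol, which covers whole transcripts and tags no molecules. The values are raw read counts per gene. Total counts were 892713 to 10333351 in the Tnmd-/- cells and 4516036 to 13613080 in the WT cells. The labels number the picked cells, and these numbers are used here. The study sorted its cells by RNA degradation, and 3 cells of each genotype were marked as less degraded (Tnmd-/- cells 9, 10 and 20 and WT cells 4, 5 and 10) and 3 as more degraded. Tnmd-/- cell 3 stood apart, with 51.8% of its counts on mitochondrial genes against 1.75% to 7.3% in the other cells. Tnmd itself had 1, 2 and 5 counts in Tnmd-/- cells 1, 9 and 20 and none in the other Tnmd-/- cells, and among the WT cells it had 10178 counts in cell 14, 7 in cell 2 and none in the rest. The deleted gene therefore separated only 1 WT cell from the knockout cells. All 9 tendon fibroblast markers had at least 20 counts over the 12 cells. Single cells had 2 to 8 of them at 10 counts or more. Dcn (decorin) was at 928.4 CPM or more in all 12 cells, whereas Scx reached 10 counts in WT cells 1, 4 and 10 only. CPM is the count divided by the total of the cell or, for a genotype, of the summed cells, times 1000000.

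A member was called seen in a cell with at least 10 counts. Of the 120 values of 10 genes in 12 cells, 71 were 0, 23 were 1 to 9 counts and 26 reached 10 counts. That is 59.2%, 19.2% and 21.7% of the values, against 57.2%, 15.8% and 27% over all genes with at least 20 counts. The member shares include Tgfb3, which was at 0 in every cell and would not pass that limit of 20 counts. Most members were thus abundant in a few cells and at or near 0 in the rest, a patchiness near that of all genes here. No member was seen in 6 or more cells, while 18.8% of the 9768 genes with at least 20 counts in the 12 cells were. The median member was seen in 2 cells, as was the median of those genes. At 0 counts a cell allows up to 3 counts, which is 0.2204 CPM in the deepest and 3.361 CPM in the shallowest cell, so a 0 is a limit and not an absence. Intervals and limits here cover counting error only, since many amplified reads can stem from 1 molecule.

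**Figure D1:**
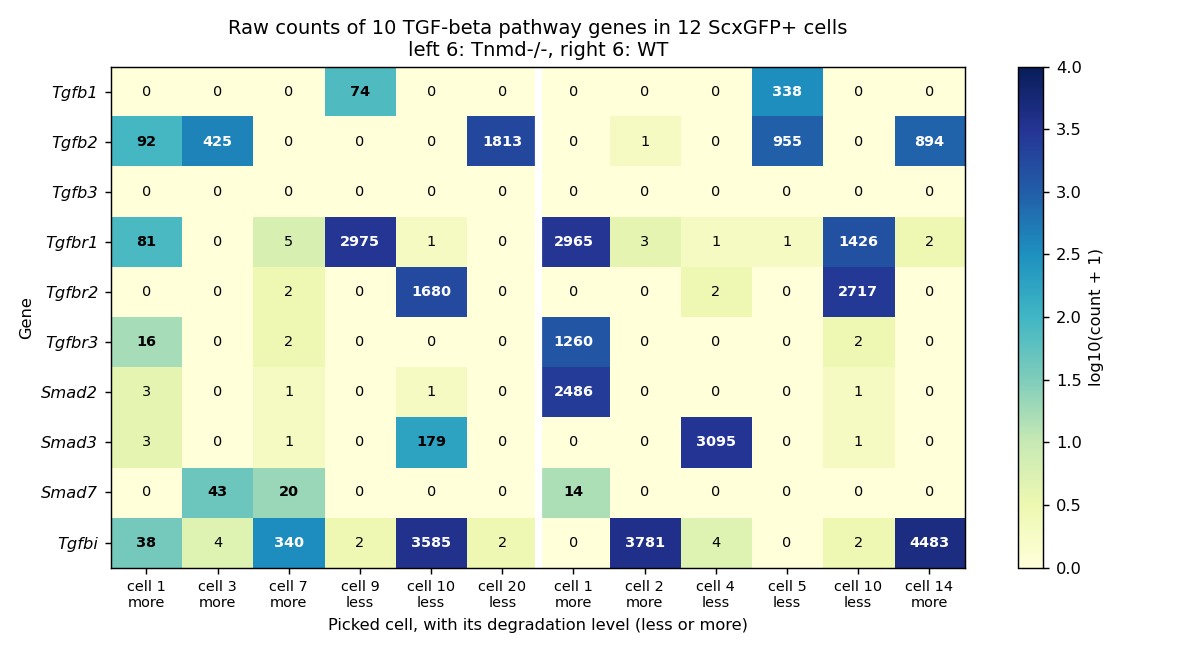
Raw counts of the 10 genes (rows) in the 12 cells (columns, with the degradation level), coloured by log10(count + 1), with bold numbers for at least 10 counts. Of the 120 values 71 were 0, and each gene was carried by at most 5 cells, with Tgfb3 at 0 throughout.

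Among the ligands, Tgfb2 was the one seen most widely and Tgfb3 was not detected. Tgfb2 (GRCm38, chr1:186622792-186705989, minus strand) had 92, 425 and 1813 counts in Tnmd-/- cells 1, 3 and 20, which is 17.32, 282.4 and 268.9 CPM. In WT cells 5 and 14 it had 955 and 894 counts, or 79.45 and 198 CPM, and 1 count in WT cell 2. The remaining 3 cells of each genotype had none, so the groups overlapped from 0 to 198 CPM, with Tnmd-/- cells 3 and 20 above the highest WT cell. Its exons share 2.14% of their bases with Gm29491 on the opposite strand, and as the strand setting of the counting is not given in the sources used here, reads there may belong to either gene.

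Tgfb1 (chr7:25687002-25705077, plus strand), the isoform best known from platelets, immune cells and fibrosis, was counted in 1 cell of each genotype. Tnmd-/- cell 9 held 74 counts (7.161 CPM, 95% Poisson interval 5.623 to 8.99) and WT cell 5 held 338 (28.12 CPM, 25.2 to 31.28), while the other 10 cells had no count. Both cells also carried Cd14, a myeloid marker, at 265.3 and 360.7 CPM, as did WT cell 10 at 112 CPM without a Tgfb1 count. In the other 9 cells Cd14 lay between 0 and 4.481 CPM. Of the other immune markers, Ptprc, Lyz2, Csf1r and C1qa were at 0 in every cell and Cd68 reached at most 0.871 CPM. Their part in the Tgfb1 values was not tested.

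Tgfb3 (chr12:86056745-86079041, minus strand), an isoform of developing tendon and palate, had 0 counts in all 12 cells. Against the limit of 3 counts in the sum, this allows up to 0.0855 CPM for the Tnmd-/- group and 0.05614 CPM for the WT group. Of the Tgfb3 exon bases 12.4% are shared with Gm37804 and Gm48008 on the opposite strand, and how reads there were assigned is not known. Pooled over each genotype, the ligands together came to 68.51 CPM in the Tnmd-/- cells (65.8 to 71.31) and 40.94 CPM in the WT cells (39.25 to 42.7). Most of it was Tgfb2 in both, and the order turned on 1 cell, since without Tnmd-/- cell 20 the Tnmd-/- value was 20.85 CPM.

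The signalling receptors were seen in few cells, with 81 to 2975 counts where they were seen. Tgfbr1 (chr4:47353222-47414931, plus strand), the kinase that phosphorylates Smad2 and Smad3, had 2975 counts in Tnmd-/- cell 9 and 81 in Tnmd-/- cell 1, with 5, 1, 0 and 0 in the others. In the WT group it had 2965 counts in cell 1 and 1426 in cell 10, with 1 to 3 counts in the other 4 cells. On the CPM scale the seen cells ran from 15.25 and 287.9 in the Tnmd-/- to 104.8 and 494.9 in the WT group. The ranges overlapped, and 10 of the 12 cells had at least 1 Tgfbr1 count.

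Tgfbr2 (chr9:116084293-116175360, minus strand), the receptor that binds ligand first, was seen in 1 cell of each genotype, and both were less degraded cells. Tnmd-/- cell 10 had 1680 counts (163 CPM) and WT cell 10 had 2717 (199.6 CPM). Of the other 10 cells, Tnmd-/- cell 7 and WT cell 4 had 2 counts each and the rest had none.

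The co-receptor Tgfbr3 (chr5:107106570-107289629, minus strand) had 1260 counts (210.3 CPM) in WT cell 1 and 16 counts (3.013 CPM) in Tnmd-/- cell 1. Tnmd-/- cell 7 and WT cell 10 had 2 counts each. WT cell 1 thus held 98.4% of all Tgfbr3 counts. Both cells with Tgfbr3 were more degraded cells in which Tgfbr1 was seen as well. Tnmd-/- cell 1 was the only cell in which an endothelial marker reached 10 counts, Pecam1 at 30.13 CPM, with Cdh5 and Emcn at 0, and the part of this in its Tgfbr3 count was not tested. Of the Tgfbr3 exon bases 4.54% are shared with Gm43422 on the same strand.

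The 2 transducers were each carried by a different WT cell. Smad2 (chr18:76241580-76310963, plus strand) had 2486 counts (414.9 CPM) in WT cell 1 and between 0 and 3 in each of the other 11 cells. Smad3 (chr9:63646767-63757994, minus strand) had 3095 counts (248.1 CPM) in WT cell 4 and 179 (17.37 CPM) in Tnmd-/- cell 10, with 0 to 3 in the rest. No cell held both at 10 counts, and in 9 of the 12 cells neither was seen. Smad2 and Smad3 were each seen in too few cells to show whether their transcripts keep apart.

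Smad7 (chr18:75367529-75395935, plus strand), the inhibitor, was low where it was seen. It had 43 and 20 counts in Tnmd-/- cells 3 and 7 (28.58 and 22.4 CPM) and 14 counts in WT cell 1 (2.337 CPM), and 0 in the other 9 cells. All 3 were more degraded cells, cells 3 and 7 were the shallowest Tnmd-/- libraries, and cell 3 was the library with 51.8% mitochondrial counts. The part of degradation and depth in these values was not tested. Of the 6 less degraded cells none had a Smad7 count.

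Tgfbi (chr13:56609523-56639562, plus strand) was the most abundant of the 10 genes and had at least 1 count in 10 cells. In the Tnmd-/- group cell 10 had 3585 counts, cell 7 had 340, cell 1 had 38, and cells 3, 9 and 20 had 4, 2 and 2. In the WT group cells 14 and 2 had 4483 and 3781 counts, cells 4 and 10 had 4 and 2, and cells 1 and 5 had none. The cells therefore fell into 4 with high Tgfbi, 347.9 and 380.9 CPM in the Tnmd-/- group and 783.5 and 992.7 CPM in the WT group, Tnmd-/- cell 1 at 7.156 CPM, and 7 cells with 4 counts or fewer. In the 4 high cells Tgfbi exceeded 71.9% to 84.5% of the genes seen in the same cell. Both WT cells with high Tgfbi were more degraded, while the Tnmd-/- cells with high Tgfbi came from both levels. Acan, a cartilage marker, stood at 1042 CPM in Tnmd-/- cell 10 and 234.2 CPM in WT cell 2, but also at 848.5 CPM in Tnmd-/- cell 9, which had 2 Tgfbi counts. Acan was at 0 and 1.329 CPM in the other 2 cells with high Tgfbi. Sox9, another cartilage marker, was highest at 481.9 CPM in Tnmd-/- cell 9 and 253.2 CPM in WT cell 1, where Tgfbi was near 0. Of the other cells with 4 Tgfbi counts or fewer, Tnmd-/- cells 3 and 20 and WT cell 4 had Sox9 at 0. WT cells 5 and 10 had it at 29.2 and 2.571 CPM. Sox9 lay between 1.451 and 41.24 CPM in the 4 cells with high Tgfbi. Hapln1 was at 187.3 CPM in Tnmd-/- cell 10, 4.481 CPM in Tnmd-/- cell 7 and 0 in the other 2, and at 76.47 CPM in WT cell 10, which had 2 Tgfbi counts. Col2a1, Matn3 and Col9a1 were at 0 in every cell. The part of these genes in the Tgfbi values was not tested.

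Levels of different genes were compared per length, as TPM (counts divided by length and scaled to a sum of 1000000 per cell) from the counts and the exon lengths of the count table. By mean TPM over the 12 cells Tgfbi came first at 151.4, followed by Tgfbr1 at 31.91, Tgfb2 at 28.44, Smad2 at 11.47, Smad3 at 10.39 and Tgfbr2 at 9.559. Tgfbr3 at 7.96, Smad7 at 2.308, Tgfb1 at 1.434 and Tgfb3 at 0 were the lowest. The median over the 12 cells was 0.7361 TPM for Tgfbi, 0.2186 for Tgfbr1, 0.04897 for Tgfb2 and 0 for the other 7 genes. The range of every gene began at 0 TPM, so no gene differed from its neighbour in this order beyond the spread between cells.

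**Figure D2:**
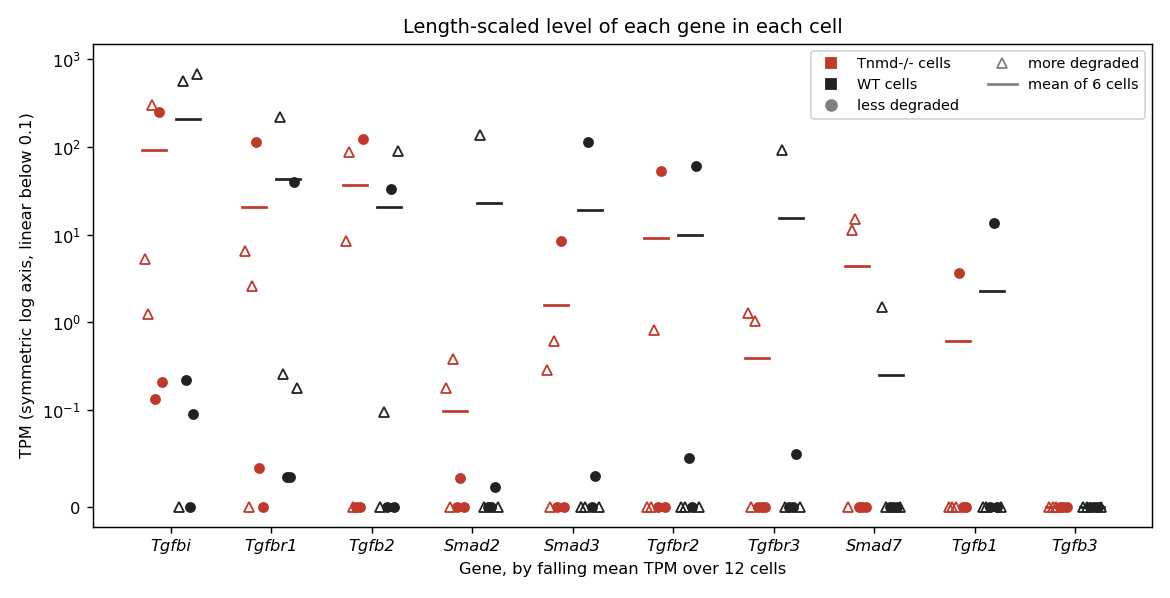
TPM of each gene in each cell (points; red Tnmd-/-, black WT; filled circles less degraded, open triangles more degraded) on a symmetric log axis, with a line for the mean of the 6 cells of a genotype. Tgfbi reached 687 TPM in WT cell 14, and the points of both genotypes overlapped for all genes.

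Ligand and signalling receptor transcripts were looked for in the same cell. A ligand was seen in 6 cells, 4 of them Tnmd-/-, and Tgfbr1 or Tgfbr2 in 5 cells, 3 of them Tnmd-/-. Only Tnmd-/- cells 1 and 9 had both a ligand and a signalling receptor, Tgfb2 with Tgfbr1 in cell 1 and Tgfb1 with Tgfbr1 in cell 9. With 1 count taken as enough the number of cells with both was 5, and with every cell thinned to 892713 counts it was 1. The overlap expected from unrelated detection was not computed, so these counts do not show whether ligand and receptor transcripts keep to different cells.

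WT cell 10 was the only cell with both Tgfbr1 and Tgfbr2 and had no ligand. A signalling receptor and Smad2 or Smad3 were seen together in 2 cells, Tgfbr2 with Smad3 in Tnmd-/- cell 10 and Tgfbr1 with Smad2 in WT cell 1. No cell held a ligand, both receptors and a transducer, also when 1 count was enough. Every cell had at least 1 member and none more than 4. The 2 cells with 4 members were Tnmd-/- cell 1, with Tgfb2, Tgfbr1, Tgfbr3 and Tgfbi, and WT cell 1, with Tgfbr1, Tgfbr3, Smad2 and Smad7. Tgfbr1 and Tgfbr3 were the pair that these shared.

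Genotypes were compared by the log2 ratio of the pooled CPM, Tnmd-/- over WT, with an exact binomial 95% interval, and a ratio of 1 or more in size was counted, the fold the study itself used. Smad7 was the 1 member counted as higher in the Tnmd-/- cells, while 39.7% of the 9768 genes were. Smad2, Tgfbr3, Smad3 and Tgfb1 were the 4 members counted as lower, and 38.3% of the 9768 genes were. In 44.2% of all 9768 genes, and in 3 members, a single cell held over 90% of the counts. The median over the 10 members, with 1 CPM added, was -0.27, and over all 9768 genes it was 0.06. Tgfb3, without a count, enters the former as 0, and over the 9 members with at least 20 counts the median was -0.45. For no member did the CPM of the 6 cells of a genotype lie wholly above that of the other, as it did for 0.0410% of the genes.

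Smad2 had the lowest ratio, -8.35 (-9.98 to -7.13), from 5 Tnmd-/- and 2487 WT counts, and all but 1 of the WT counts came from cell 1. Without that cell 5 counts stood against 1, a ratio of 2.76 (-0.40 to 8.32). Tgfbr3, at -5.52 (-6.28 to -4.86), rested on the same cell and had a ratio of 3.61 (1.54 to 6.76) without it, on 18 against 2 counts. Smad3 was at -3.47 (-3.70 to -3.26), and at 7.74 (5.24 to 13.05) without WT cell 4, which left 1 WT count. Tgfb1 was at -1.58 (-1.97 to -1.22), and at 4.86 or more without WT cell 5, which left no WT count. In each of these 4 genes a single WT cell thus set the direction.

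Smad7 had a ratio of 2.78 (1.93 to 3.73) from 63 against 14 counts. It stayed above 0 with each cell left out, at 1.18 (0.13 to 2.28) without Tnmd-/- cell 3 and at 4.83 or more without WT cell 1. The size of the Smad7 ratio depended on the scaling, at 4.45 with the mean CPM of the cells, 6.66 with TMM factors and 8.03 by the size factors of DESeq2. Tgfb2 was just inside the fold at 0.94 (0.85 to 1.03), with 1.40 in the less and 0.20 in the more degraded cells, and -0.92 without Tnmd-/- cell 20. Under the same 3 scalings it was past the fold, at 1.03, 1.54 and 2.70.

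The signalling receptors and Tgfbi had pooled ratios inside the fold, with larger values of either sign once single cells or a degradation level were left out. Tgfbr1 was at 0.08 (0.02 to 0.15), but at 1.54 in the less and -4.12 in the more degraded cells. It was at -4.55 without Tnmd-/- cell 9 and at 1.53 without WT cell 1. Tgfbi was at -0.45 (-0.51 to -0.40), but at 9.70 in the less degraded cells, where 3589 counts stood against 6, and at -3.44 in the more degraded cells, where 382 stood against 8264. With the mean CPM of the cells it was -1.27, past the fold, and with TMM factors 0.26. Without Tnmd-/- cell 10 the Tgfbi ratio was -3.31, and without WT cell 14 it was 0.55. Tgfbr2 was at -0.09 (-0.17 to 0.00) with 1 carrying cell on each side, and at -9.30 (-12.35 to -7.45) or 9.90 (8.04 to 12.95) without the one or the other.

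**Figure D3:**
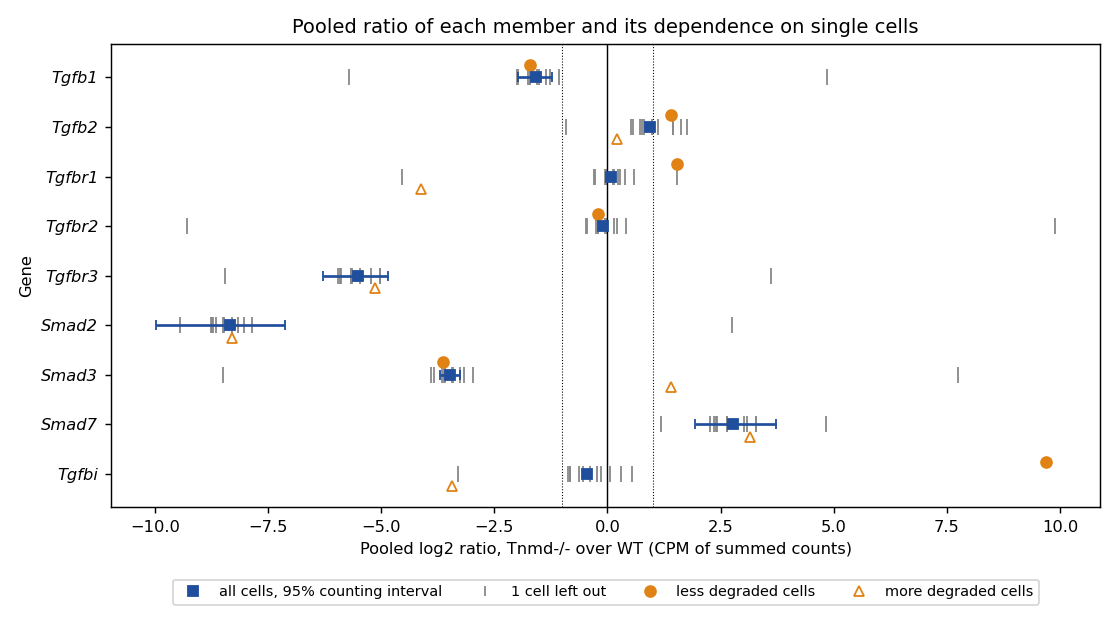
Pooled log2 ratio of CPM, Tnmd-/- over WT, for the 9 members with counts (squares with the 95% counting interval), with each cell left out in turn (grey ticks) and in the less (filled circles) and more degraded cells (open triangles). Dotted lines mark 1 and -1, and ticks lie on both sides of 0 for every gene but Smad7.

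Other genes of the pathway were then described in lists made by role. Of 17 genes that keep TGF-beta latent or activate it, 13 had at least 20 counts, 4 of them counted as higher and 9 as lower in the Tnmd-/- cells, with a median of -1.95. Over all 9768 genes 39.7% were higher and 38.3% lower, with a median of 0.06, and this holds for the lists that follow. The median of the 13 was -1.18 in the less and 0.00 in the more degraded cells, and -2.09 to -1.06 with each cell left out. In the more degraded cells 10 of the 13 had a ratio, 4 higher and 6 lower, while 47.1% and 38.4% of all genes were. Genes without a ratio enter near 0 and set that median of 0.00. Itgb1, the common beta chain of matrix integrins, was seen in 11 cells, at 7.975 to 386 CPM in Tnmd-/- cells and 1.175 to 2269 CPM in WT cells, with a ratio of -1.15 (-1.18 to -1.12), which was -0.78 without WT cell 2. Thbs1, a thrombospondin that can activate the latent complex, was at -1.97 and was seen in 5 Tnmd-/- and 3 WT cells, so that its lower sum did not come with fewer cells. Of its counts 50.1% came from WT cell 14, and without that cell the ratio was -0.83. Itgav, the alpha V integrin chain, was at -1.99, and Ltbp4, a latent TGF-beta binding protein, at 3.11, each seen in 6 cells. The ends of the list were integrin beta chains, Itgb5 at -8.75 with 88.4% of its counts in WT cell 5, and Itgb8 at 5.48 or more, from 88 counts against 0.

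Of 11 co-receptors and other receptors of the superfamily, 6 had 20 counts, 4 counted as higher and 2 as lower, with a median of 1.42. The median was -0.73 in the less degraded cells, 2.64 in the more degraded cells and -0.38 without Tnmd-/- cell 1. Bmpr2, the type II receptor for bone morphogenetic proteins, was the most widely seen, in 5 WT cells at 65.16 to 777.2 CPM and in 2 Tnmd-/- cells at 29.61 and 77.42 CPM, with a ratio of -3.48 (-3.58 to -3.38). WT cell 5 alone held 61.7% of its counts. Eng (endoglin), a co-receptor best known from endothelium, was at 9.56 (7.07 to 14.86), and Tnmd-/- cell 9 held 99.8% of it, a cell with the 6 endothelial markers at 0. Bmpr1b was the lowest at -6.02, with 92.1% of its counts in WT cell 14.

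Of 17 other Smads and Smad regulators, 15 had 20 counts, 4 higher, 6 lower and 5 in between, with a median of -0.36 that ran from -1.54 to 0.47 with each cell left out. Tgif1, a repressor that binds Smads, was seen in all 6 WT and in 4 Tnmd-/- cells, with a ratio of 0.65. The Tgif1 ratio was 2.37 in the less and -3.72 in the more degraded cells, and -0.91 without Tnmd-/- cell 10. Skil (SnoN), another Smad repressor, was seen in 5 WT and 3 Tnmd-/- cells, with a ratio of -2.46. Strap, which associates with the receptors and Smad7, was at -0.61, at 0.00 without WT cell 1 and at -1.78 without Tnmd-/- cell 10, and seen in 3 cells of each genotype. The ends were Nedd4l, a ubiquitin ligase that acts on Smads, at 8.79, and Ppm1a, a phosphatase of Smad2 and Smad3, at -8.45. Tnmd-/- cell 9 held 89.3% of the Nedd4l counts and WT cell 10 held 90.7% of the Ppm1a counts.

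Of 10 genes of Smad-independent signalling, 6 had 20 counts, 2 higher and 4 lower, with a median of -1.63. The median was 0.53 without WT cell 4, -0.55 in the less and 0.25 in the more degraded cells, where 4 of the 6 had a ratio. Genes without a ratio enter near 0 and set the 0.25. Rhoa, a small GTPase, was seen in 4 Tnmd-/- and 5 WT cells at a ratio of -1.26. WT cell 4 held 50.4% of the Rhoa counts, and without it the ratio was -0.16. Map3k7, the kinase TAK1, was lowest at -3.90, with 95.8% of its counts in WT cell 4, and at 5.27 or more without that cell. Its partner Tab2 was highest at 5.53, with 69.9% in Tnmd-/- cell 9.

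The 22 genes known to respond to TGF-beta were the most widely seen list. Of the 18 with 20 counts, 10 were seen in 6 or more cells, 1 was counted as higher and 10 as lower in the Tnmd-/- cells, and the median was -1.32, against 39.7% higher and 38.3% lower over all genes. The medians of the less and the more degraded cells lay on the same side, at -1.21 and -1.64. In the more degraded cells the medians of the latency, Smad and Smad-independent lists were 0.00, 0.00 and 0.25. Genes without a ratio at that level enter near 0 and set these values, so they do not set the lists apart. With each cell left out the median of the responsive genes ran from -2.16 without Tnmd-/- cell 9 to -0.36 without WT cell 4. Without WT cell 4, 3 genes were counted as higher and 7 as lower. In the less degraded cells 3 of 18 were higher and 11 lower, while 37.4% of all genes with a ratio were higher and 40.3% lower. In the more degraded cells 3 of 16 with a ratio were higher and 9 lower, while 47.1% and 38.4% of all genes were. The list also holds matrix and tendon genes, among them Scx, Mkx, Col1a1 and Col1a2 of the tendon markers, and Tgif1 and Skil of the previous list.

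The 10 genes of this list seen in 6 or more cells included several matrix genes, while the matrix genes Col1a1, Col3a1 and Postn were seen in 5, 4 and 0 cells. Fn1 (fibronectin) was seen in all 12 cells, at 29.24 to 7758 CPM in Tnmd-/- cells and 455.5 to 22018 CPM in WT cells, with a ratio of -1.27. WT cell 10 held 51% of the Fn1 counts, and without it the ratio was -0.19. Timp3, an inhibitor of metalloproteinases, was at -1.36, and at -0.44 without WT cell 4, which held 47.5% of its counts. Lox, the collagen cross-linking enzyme, was at -1.48, and at -0.92 without WT cell 5, which held 38.3%. Each of these 3 genes, which lost the fold without 1 cell, was seen in all 12 cells, as was Bgn (biglycan) at -0.84. Col1a2 was at -0.35 and Cdkn1a, the cell cycle inhibitor p21, at 0.05, again in all 12 cells. Ccn2 (connective tissue growth factor), a widely used readout of the pathway, was seen in 5 Tnmd-/- cells and 4 WT cells. It stood at 1.695 to 720 CPM in the former and 1.107 to 2395 CPM in the latter, a ratio of -2.19 (-2.22 to -2.17), and the 3 less degraded WT cells, at 1682, 2274 and 2395 CPM, lay above all Tnmd-/- cells. With each cell left out the Ccn2 ratio ran from -3.05 to -1.82. Its relative Ccn1 was the 1 gene counted as higher, at 1.01 (0.98 to 1.05), with 0.51 without Tnmd-/- cell 9 and 4.32 without WT cell 4, and was seen in 5 Tnmd-/- but 2 WT cells. Scx, which the pathway induces, was lowest at -8.83 (-11.11 to -7.28), with 3 counts in all Tnmd-/- cells against 2074 in the WT cells. The ranges of the 2 genotypes overlapped for each of these genes.

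**Figure D4:**
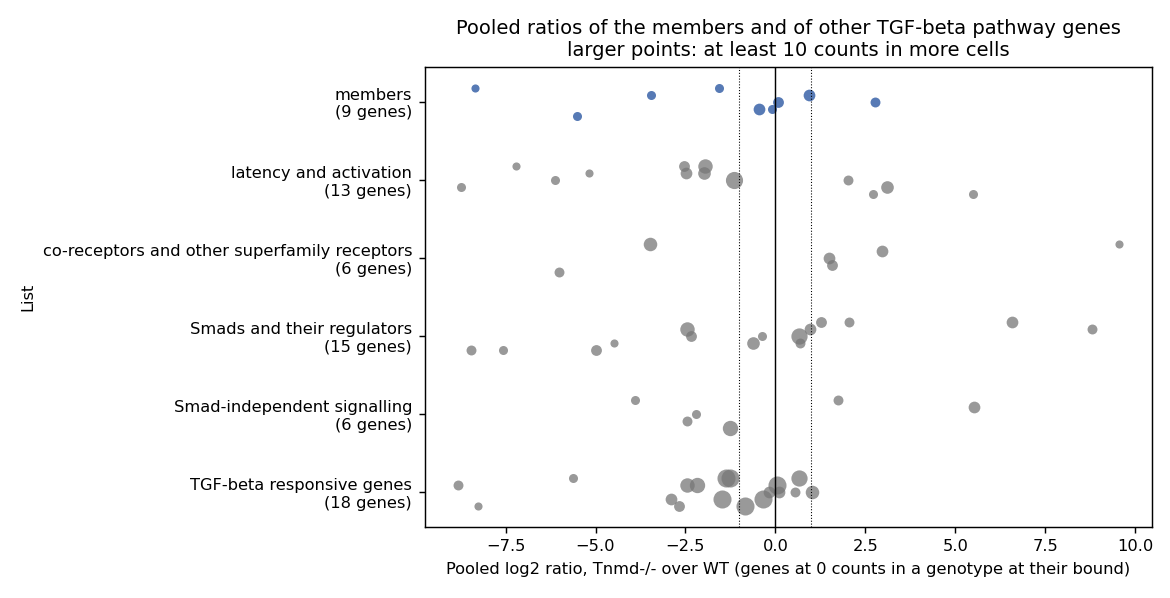
Pooled log2 ratio, Tnmd-/- over WT, of the 9 members with 20 counts and of the genes of 5 pathway lists (1 point a gene; larger points for genes seen in more cells; dotted lines at 1 and -1; genes at 0 counts in a genotype drawn at their bound). Points spread over both sides of 0 in each list, and the TGF-beta responsive genes seen in 6 or more cells lie between -2.46 and 1.01.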

How the data were processed

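The authors deposited unnormalized counts of reads, 1 value per gene and cell, all of them whole. Per the methods, reads were trimmed, filtered against non-mouse sequence, aligned to GRCm38 (Ensembl 96) by STAR 2.5.1b and, when unique and exonic, counted by featureCounts in Subread 2.0.0. The strand setting is not given in the sources used here. Degradation levels follow the annotation of the study's heat map, and groups follow the labels. All 66 pairs of cells differed, with rank correlations up to 0.593. Gene positions came from GENCODE M21, which held all 55418 symbols.

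Counts were summed per genotype (35088506 Tnmd-/-, 53439236 WT) and divided by the summed total. Intervals are exact Poisson (sums) and Clopper-Pearson (ratios) at 95%, for counting error only. Sums of 0 were set to 3 counts and gave a bound; where both sums were 3 or fewer no ratio is given. Values over many genes used at least 20 counts, and their medians 1 added CPM.

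All 10 members are named, and of each list the genes seen in 6 or more cells and the highest and lowest ratio, besides markers. The members and lists were chosen with earlier results of these data known. No gene most like a member was sought, as no member was seen in 6 cells. Alternatives were mean CPM over cells, edgeR 4.0.16 TMM factors, DESeq2 1.42.0 size factors, totals without the 37 mitochondrial and the 50 top genes, each degradation level, each cell left out, 5 CPM added, at least 100 counts, other limits for seen, thinning to 892713 counts and CPM in place of TPM. List medians by level, and list medians, named list genes and the ligand sum with each cell left out, were added after seeing the data. Scripts ran in Python 3.11.15 (numpy 2.4.6, pandas 2.3.3, scipy 1.17.1) and R 4.3.3.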

Additional observations from a re-analysis of the deposited data

Results flagged for a closer look

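In 9 of the 18 pairs of a member and a genotype with any count, the highest cell stood apart from the other 5 of its group, with a gap to the next cell, as a part of the whole range of log2(CPM + 1), above Dixon's 95% critical value. The gap was 1 for Tgfb1 in Tnmd-/- cell 9 and in WT cell 5 and for Smad7 in WT cell 1, where no other cell of the group had a count. It was 0.769 for Tgfbr2 in Tnmd-/- cell 10 and 0.972 in WT cell 10. For WT cell 1 it was 0.974 for Tgfbr3 and 0.988 for Smad2. For Smad3 it was 0.742 in Tnmd-/- cell 10 and 0.987 in WT cell 4. The critical value is set for normally distributed values. Over all genes 53.1% of 17303 such pairs were flagged, which is near the share among the members. Tgfb2, Tgfbr1 and Tgfbi were flagged in neither genotype.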

How the results depend on the processing

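The number of members counted as higher in the Tnmd-/- cells, 1, was 2 with mean CPM over cells, DESeq2 size factors or TMM factors, 3 in the less and 2 in the more degraded cells, 0 with at least 100 counts, and 1 to 4 with each cell left out. The number counted as lower, 4, was 2 in the less degraded cells and 2 to 6 with each cell left out. The median ratio of the members, -0.27, was -1.10 with mean CPM, -0.75 with DESeq2 size factors, -0.69 with TMM factors, 0.00 in either degradation level, -0.84 with at least 100 counts and -2.06 to 0.08 with each cell left out. The 0.00 came in both levels from members without a ratio there, which enter near 0 through the added CPM. The lowest median came without Tnmd-/- cell 10 and the highest without WT cell 1. Mitochondrial and top genes left out of the totals moved none of these past its limits. With 1 count taken as seen, 3 members were seen in 6 or more cells. A ligand and a receptor shared 5 cells at 1 count and 1 cell after thinning, against 2. By CPM in place of TPM 2 members changed place in the order. With each cell left out the ratio ran from -5.71 to 4.86 for Tgfb1, -8.46 to 3.61 for Tgfbr3, -9.44 to 2.76 for Smad2 and -8.49 to 7.74 for Smad3, so each of these reversed. Smad3 also reversed in the more degraded cells, at 1.41 or more on 4 against 0 counts. The median of the list of other receptors reversed in the less degraded cells (-0.73) and ran from -0.38 (without Tnmd-/- cell 1) to 3.41 with each cell left out. That of Smad-independent genes reversed in the more degraded group (0.25, set by genes without a ratio there) and ran from -2.16 to 0.53 (without WT cell 4). Of the named list genes past the fold, Map3k7 reversed, from -10.50 to 5.27 with each cell left out. The construction of the pooled sum, in which 1 cell can hold most counts, gives these leave-out changes, and the cause of the others was not tested. No paired analysis was possible because no test was made and the cell numbers pair no cells across genotypes. The Pearson alternative for genes most like a member was not run, as no member qualified. Depth limits detection at 3 counts, up to 3.361 CPM in the shallowest cell.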

Other observations

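The cells that carried the Smads also differed in other genes of the pathway. WT cell 4 held 94.4% of all Smad3 counts. It also had the highest CPM of Ccn2 (2395), Ccn1 (981), Scx (108.6), Timp3 (7523), Rhoa (2485) and Map3k7 (180.9) among the 12 cells. The same cell had no Tgfb1 or Tgfb2 count, 1 count of Tgfbr1 and 2 counts of Tgfbr2. It was also the cell with the most genes seen, 3633. Tnmd-/- cell 10, the other cell in which Smad3 was seen, had lower CPM of Ccn2 (103.8), Ccn1 (316.4), Scx (0), Timp3 (348.8), Rhoa (244.2) and Map3k7 (0.09704). WT cell 1, which held 99.8% of all Smad2 counts, had the highest CPM of Tgif1 (733.6) and Lox (2481) and no count of any ligand or of Tgfbi. These genes were chosen after their values were seen, each rests on 1 cell, and no test was made.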
